A study of Rattus norvegicus with 6 samples.

Results

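Dark cells are non-sensory epithelial cells that border the sensory patches of the vestibule and secrete potassium into the endolymph, the fluid that bathes the hair bundles. Transcripts of 8 genes of this secretion, Kcnq1, Kcne1, Slc12a2, Bsnd, Kcnj10, Slc26a4, Atp1b2 and Atp6v1b1, were followed by RNA-seq in the vestibular epithelium of rats drinking an ototoxic compound. They were chosen by gene symbol, with earlier results of these data known, and all 8 were found among the 32883 genes of the count table. Control animals were 3 adult male Long-Evans rats that drank plain water. The IDPN-4wk animals were 3 adult males of the same strain whose water held 20 mM 3,3'-iminodipropionitrile (IDPN), a nitrile that damages vestibular hair cells (HCs), for 4 weeks. The utricles and cristae of each animal were pooled, so that each library is 1 animal, and no library mixes animals. Dissection was intended to clean the sensory epithelium of adjacent tissue, so dark cells were present only as far as they were carried along.

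In dark cells, potassium enters from the basal side through the sodium-potassium-chloride cotransporter NKCC1, encoded by Slc12a2, which runs on the sodium gradient that the Na,K-ATPase maintains. Chloride leaves again on the basolateral side through channels that need the subunit barttin, encoded by Bsnd, and potassium leaves into the endolymph through an apical channel made of KCNQ1 and its subunit KCNE1. Loss of any of several of these genes collapses the endolymphatic space or lowers its potassium in rodents and causes deafness in people. Kcnj10, Slc26a4 and Atp6v1b1 act in neighbouring non-sensory cells or in the endolymphatic sac, as a potassium channel, an anion exchanger and a proton pump subunit.

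Libraries held from 13358678 to 18561991 counts, and 14352 genes passed the filter on low counts. Levels are given as CPM, counts scaled to a common library size by TMM, and as means ± SD over the 3 animals of a group. They are not corrected for transcript length, so levels of different genes are not compared. A gene was called downregulated or upregulated at an adjusted p (Padj, edgeR) under 0.05 over all genes tested and a fold change over 1.5. By this rule 950 genes were lower (6.62% of those tested) and 444 higher (3.09%), and 9.71% were called in either direction. Scaling by library size without TMM gave 780 lower and 762 higher genes and moved the median log2-Fold change of all genes from 0.02 to 0.13. The labels name a single batch. The animal codes in the sample titles share one prefix in the IDPN-4wk group, which differs from those of the controls, so whatever this prefix marks cannot be told apart from treatment. The 8 HC markers and 10 supporting cell markers examined all passed the filter on low counts, as did the 8 dark cell markers.

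Promoter sequences are shown for 3 of the genes, to set a gene that was lower in IDPN-4wk libraries (Atp1b2) beside 2 whose level did not change beyond the replicate spread (Bsnd and Slc26a4). RefSeq promoters of the rat build GRCr8, from 250 bases before to 50 bases after the annotated start, were found for 7 of the 8 genes. Each is given 5′ to 3′ on the strand of the gene: Atp1b2 at chr10:54823659-54823958 (minus strand), Bsnd at chr5:126489340-126489639 (minus strand) and Slc26a4 at chr6:53873167-53873466 (minus strand). Capitals mark matches to any of the motifs searched on both strands, which were the GC box GGGCGG, the TATA box TATAAA, the forkhead core TAAACA and the core AAGGTCA of oestrogen-related receptors such as ESRRB.
Atp1b2: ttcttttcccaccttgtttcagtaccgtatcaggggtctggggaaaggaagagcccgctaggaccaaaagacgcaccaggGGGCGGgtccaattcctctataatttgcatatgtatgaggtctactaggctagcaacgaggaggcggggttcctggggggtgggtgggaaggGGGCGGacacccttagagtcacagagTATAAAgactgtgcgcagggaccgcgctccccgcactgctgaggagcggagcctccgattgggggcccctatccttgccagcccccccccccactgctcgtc
Bsnd: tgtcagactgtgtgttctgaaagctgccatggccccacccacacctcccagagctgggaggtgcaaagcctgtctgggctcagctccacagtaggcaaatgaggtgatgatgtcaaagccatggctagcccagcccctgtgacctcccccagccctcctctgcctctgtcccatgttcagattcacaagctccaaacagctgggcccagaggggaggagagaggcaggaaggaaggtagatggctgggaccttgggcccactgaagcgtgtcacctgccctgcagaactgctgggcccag
Slc26a4: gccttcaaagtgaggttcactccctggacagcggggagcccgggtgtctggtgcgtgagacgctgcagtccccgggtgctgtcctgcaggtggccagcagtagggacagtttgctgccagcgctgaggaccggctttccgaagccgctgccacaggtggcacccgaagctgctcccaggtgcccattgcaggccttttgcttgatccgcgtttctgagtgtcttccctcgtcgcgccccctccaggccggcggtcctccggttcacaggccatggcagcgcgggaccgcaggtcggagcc

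The Atp1b2 promoter held TATAAA starting 52 bases before the start and GGGCGG at 170 and 78 bases before it. No match to any of the 4 motifs was found in the windows of Bsnd and Slc26a4. The Slc12a2 window held 3 GC boxes and that of Kcnj10 held 2, while those of Kcne1 and Atp6v1b1 held 1 forkhead core each. AAGGTCA was found in none of the 7 windows. Among all 33469 rat promoters of this length, 33.1% held GGGCGG, 14.2% TATAAA, 13.7% TAAACA and 4.61% AAGGTCA, so short matches of this kind are common.

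After IDPN, the potassium channel pore gene Kcnq1, the cotransporter gene Slc12a2 and the pump subunit gene Atp1b2 were downregulated, which is 3 of the 7 genes tested, where 6.62% of all genes tested were called lower. None was upregulated, where 3.09% of all genes were. By Padj alone 4 of the 7 were lower, Kcnj10 being the further gene, and 0 were higher, against 11.5% and 7.89% of all genes tested. The IDPN-4wk libraries were all below the control libraries for 4 of the 7 genes, which was so for 19.3% of all genes tested, and above them for none (18.5% of all genes). The median log2-Fold change of the 7 genes was -0.60. Since the genes were chosen with earlier results of these data known, these shares describe them and are not a test. In a bulk sample, fewer cells of a type cannot be told apart from less RNA per cell, and this holds for every result on these genes.

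**Figure D1:**
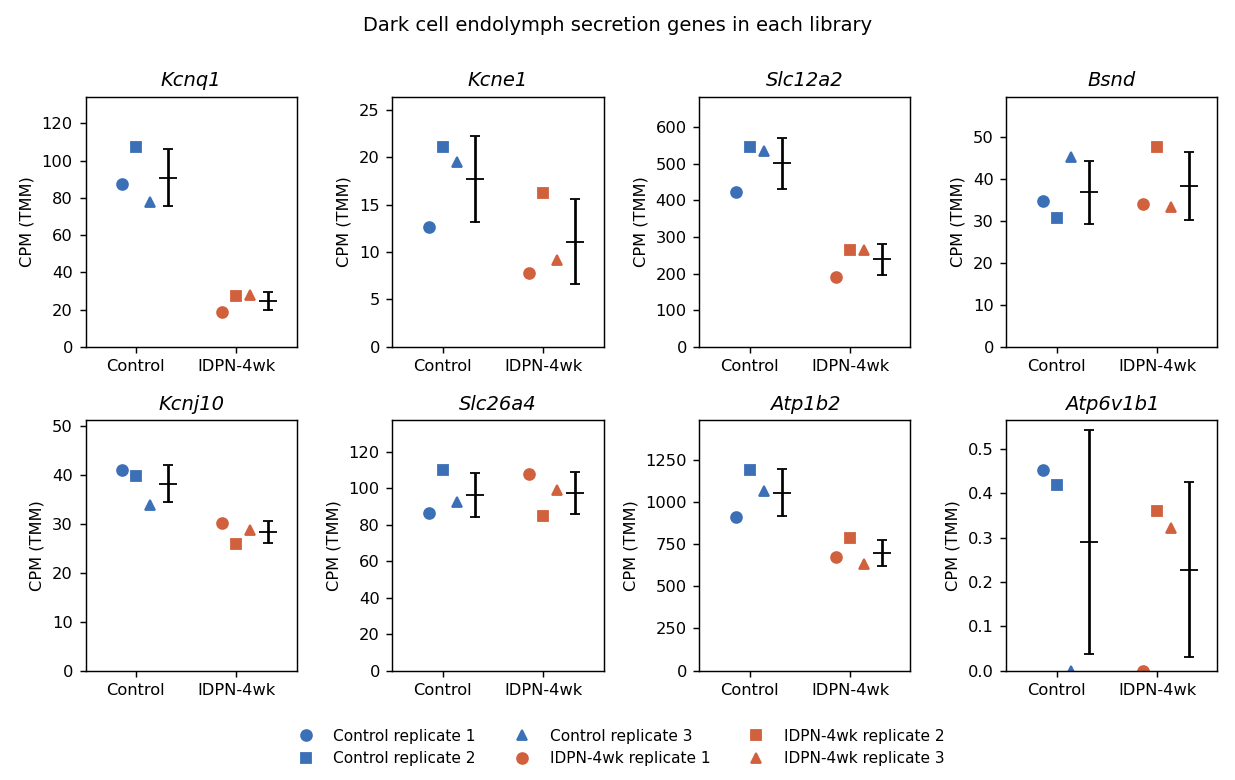
Level of each of the 8 genes (y axis, CPM after TMM, starting at 0) in the 3 control (blue) and 3 IDPN-4wk (orange) libraries, with a marker shape per replicate and the mean ± SD in black. Kcnq1, Slc12a2, Kcnj10 and Atp1b2 are lower in every IDPN-4wk library than in any control, the libraries of Kcne1, Bsnd and Slc26a4 overlap, and Atp6v1b1 reaches at most 0.452 CPM.

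Kcnq1 (ENSRNOG00000020532) encodes the pore of the apical potassium channel. Its level was 87.4, 107 and 77.6 CPM in the control libraries and 18.9, 27.3 and 27.8 CPM in the IDPN-4wk libraries. All treated animals were below all controls, by a wide margin. The mean fell from 90.8 ± 15.3 to 24.7 ± 5.01 CPM, which is 27.2% of control (log2-Fold change -1.87 ± 0.16 SE, Padj of edgeR 3.73e-05). It stayed past both thresholds in every one of 13 alternative fits, with log2-Fold changes from -1.98 to -1.73.

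Kcne1 (ENSRNOG00000001984) encodes the subunit that gives the KCNQ1 channel its slow, sustained current. Its level was 12.6, 21.1 and 19.5 CPM in the controls, against 7.84, 16.2 and 9.21 CPM after IDPN. The groups overlapped, since IDPN-4wk replicate 2 was above control replicate 1. The mean was 17.7 ± 4.52 CPM in controls and 11.1 ± 4.51 CPM in treated animals, and the difference was not past the thresholds (log2-Fold change -0.66, 95% interval from -1.25 to -0.07, edgeR Padj 0.114). The call changed with 1 library and with the tool. Without IDPN-4wk replicate 2 the log2-Fold change was -1.05 with edgeR Padj 0.0156. Kcne1 was also called lower by DESeq2 on all 6 libraries (log2-Fold change -0.68, Padj 0.0488).

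Relative to Kcnq1, Kcne1 counts were higher after IDPN. The log2 ratio of Kcne1 to Kcnq1 counts was -2.38 ± 0.40 in control and -1.20 ± 0.42 in IDPN-4wk libraries. The increase was 1.17 with an SE of 0.34, and the groups did not overlap. A two-sided exact permutation test gave p = 0.1, which is the smallest p that 3 against 3 libraries allow, and 0.117 after Benjamini-Hochberg adjustment over the 7 ratios to Kcnq1. With 3 animals per group this difference could not pass 0.05, whatever its size.

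Slc12a2 (ENSRNOG00000015971) encodes NKCC1, the basolateral entry route of potassium, which many secretory and connective tissue cells of the inner ear also express. Its level was 422, 547 and 534 CPM in the controls, against 190, 264 and 265 CPM after IDPN, without overlap. The mean fell from 501 ± 68.7 to 240 ± 42.7 CPM, which is 47.8% of control (log2-Fold change -1.06 ± 0.14 SE, Padj of edgeR 4.11e-04). It was called lower in all 13 alternative fits, from -1.17 to -0.93.

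Atp1b2 (ENSRNOG00000011227) encodes the beta 2 subunit of the Na,K-ATPase, found in strial marginal and dark cells and also in glia. Control libraries held 911, 1191 and 1069.5 CPM, and IDPN-4wk libraries 674, 787 and 636 CPM. All treated animals were below all controls. The mean fell from 1057 ± 140 to 699 ± 78.9 CPM, which is 66.1% of control (log2-Fold change -0.60 ± 0.11 SE, Padj of edgeR 0.00365). This change lies close to the fold change threshold. It was under that threshold in 5 of the 13 alternative fits, among them those without control replicate 2 (-0.50), IDPN-4wk replicate 1 (-0.58) or IDPN-4wk replicate 3 (-0.54), with edgeR Padj at most 0.0197 throughout.

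Bsnd (ENSRNOG00000006543), the gene of barttin, did not change beyond the replicate spread. Its level was 34.8, 30.6 and 45.2 CPM in the controls, against 33.9, 47.7 and 33.4 CPM after IDPN. The groups overlapped, with means of 36.9 ± 7.49 and 38.4 ± 8.11 CPM. The log2-Fold change was 0.06 with a 95% interval from -0.31 to 0.43 (edgeR Padj 0.833), an interval that leaves out a fold change of 1.5 in either direction. Its sign turned when control replicate 2 (-0.06) or IDPN-4wk replicate 2 (-0.13) was left out.

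Slc26a4 (ENSRNOG00000058692) encodes pendrin, a chloride-bicarbonate exchanger of the transitional cells beside the dark cells. Control libraries held 86.2, 109.8 and 92.7 CPM, and IDPN-4wk libraries 107.7, 84.8 and 98.9 CPM. The highest and the lowest library were a control and a treated animal, respectively. The means were 96.2 ± 12.2 and 97.1 ± 11.6 CPM (log2-Fold change 0.01, 95% interval from -0.23 to 0.25, edgeR Padj 0.952). This interval too leaves out a fold change of 1.5. The sign of so small a value turned in 4 leave-one-out fits, without control replicate 1 (-0.06), control replicate 3 (-0.01), IDPN-4wk replicate 1 (-0.07) or IDPN-4wk replicate 3 (-0.01).

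Kcnj10 (ENSRNOG00000007705) encodes the inward rectifier Kir4.1, which sets the membrane potential of glia, supporting cells and pigmented intermediate cells. Its level was 40.9, 39.8 and 33.9 CPM in the controls, against 30.3, 25.9 and 28.8 CPM after IDPN. All treated animals were below all controls, by a small margin. The mean was 38.2 ± 3.77 CPM in controls and 28.3 ± 2.23 CPM in treated animals, or 74.2% of control. The log2-Fold change of -0.43 (SE 0.11, edgeR Padj 0.0200) was under the fold change threshold, as in all 13 alternative fits, where Padj from edgeR, DESeq2 or limma ranged from 0.00922 to 0.0699.

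Atp6v1b1 (ENSRNOG00000013573) encodes the B1 subunit of the V-ATPase, the proton pump of the endolymphatic sac and of kidney intercalated cells. It had 7, 6 and 0 counts in control and 0, 7 and 5 counts in IDPN-4wk libraries, and was removed by the filter on low counts. Fitted without that filter, it had an edgeR Padj of 0.890. Where no count was found, up to 3 counts cannot be told from 0, and these correspond to 0.212 CPM in control replicate 3 and 0.216 CPM in IDPN-4wk replicate 1. Foxi1, the transcription factor that switches on Atp6v1b1 and Slc26a4 in the endolymphatic sac, had 0 counts in all 6 libraries. Atp6v1g3 was also at 0 in all 6, and Atp6v0a4, the a4 subunit paired with B1 in acid-secreting cells, reached at most 18 counts. A difference between the groups in Atp6v1b1, Foxi1 or Atp6v1g3 was not detectable at this depth, while Slc26a4 was at 84.8 CPM or more in every library.

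**Figure D2:**
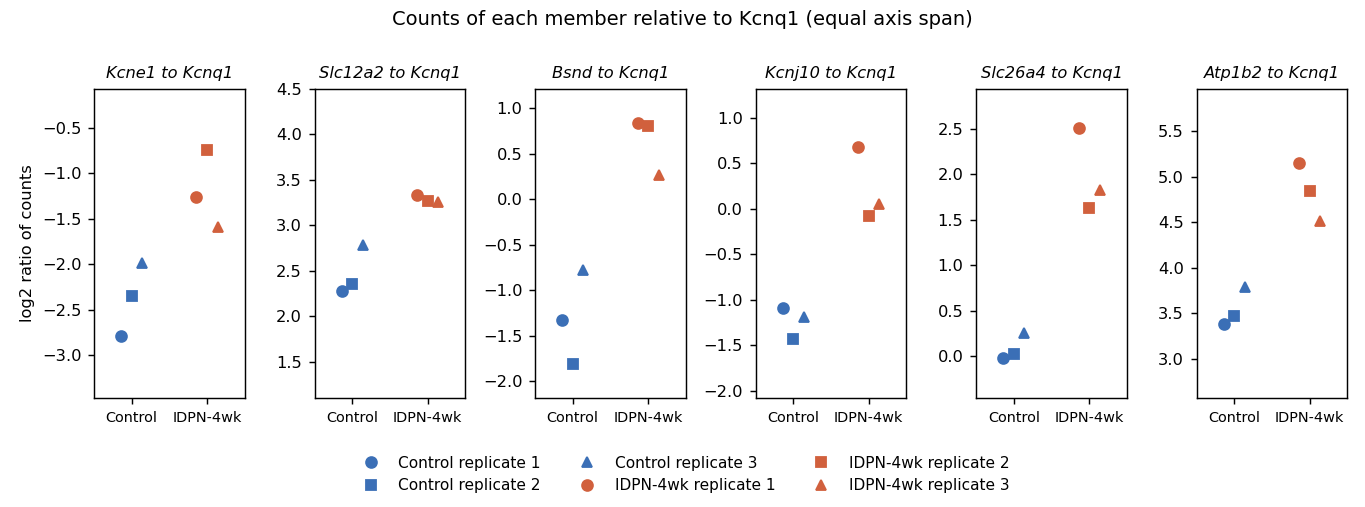
Log2 ratio of the counts of 6 of the genes to those of Kcnq1 (y axes, equal span) in each control (blue) and IDPN-4wk (orange) library; a marker shape stands for a replicate. In all 6 panels every IDPN-4wk library lies above every control library. The panels share Kcnq1, the gene with the lowest log2-Fold change, as denominator, so they are not separate results.

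Kcnq1 had the lowest log2-Fold change of the 7 genes tested. That the ratios of the other tested genes to it rose therefore follows from taking Kcnq1 as denominator. These ratios share that denominator and are not separate results. The log2 ratio to Kcnq1 rose by 1.94 (SE 0.35) for Bsnd, 1.90 (SE 0.28) for Slc26a4, 1.46 (SE 0.25) for Kcnj10, 1.29 (SE 0.22) for Atp1b2 and 0.81 (SE 0.16) for Slc12a2. Like that of Kcne1, each of these had an exact permutation p = 0.1, the smallest possible, and 0.117 after adjustment, while the groups overlapped for the ratio of Atp6v1b1 (exact permutation p = 0.3). The Slc12a2 ratio was 3.33, 3.27 and 3.25 in treated animals, while Kcnq1 itself ranged from 18.9 to 27.8 CPM there. In the controls the same ratio spread more widely (2.27, 2.35 and 2.78). A ratio within a library does not depend on how libraries are scaled.

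Partner genes were compared next, to see whether the subunits that work with these genes moved with them. Esrrb, a nuclear receptor needed for the identity of strial marginal cells and found in dark cells, was downregulated. Its level was 8.27, 15.2 and 8.71 CPM in the controls, against 2.88, 5.06 and 1.87 CPM after IDPN (log2-Fold change -1.69 ± 0.35 SE, Padj of edgeR 0.00753), and it was called lower in all 13 alternative fits. Kcne2, another KCNQ1 subunit, fell from 6.64 ± 1.23 to 3.12 ± 0.838 CPM (log2-Fold change -1.07, edgeR Padj 0.0178). That call was lost without control replicate 3 (edgeR Padj 0.0746) or IDPN-4wk replicate 1 (edgeR Padj 0.0561).

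Among pump subunits, Atp1b3 was downregulated (log2-Fold change -0.68 ± 0.09 SE, Padj of edgeR 3.66e-04), although it was under the fold change threshold with library size alone (-0.57). Atp1b1, the most widespread beta subunit, had Padj under 0.05 and a fold change under the threshold (-0.47, edgeR Padj 0.00330). Kcnj16, which pairs with Kcnj10, had a log2-Fold change of -0.38 with overlapping groups (edgeR Padj 0.116).

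**Figure D3:**
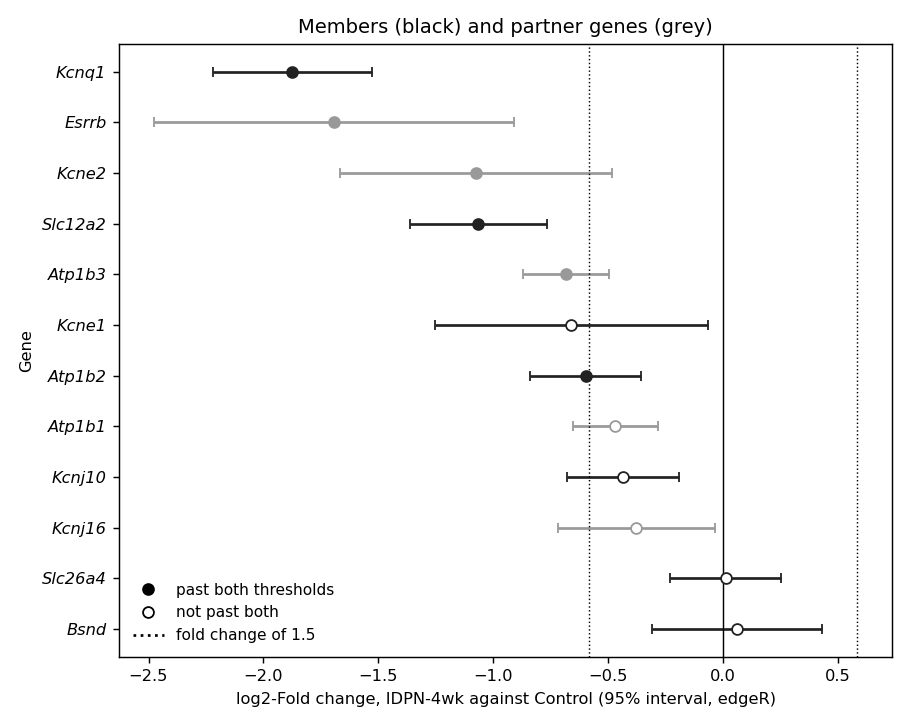
Log2-Fold change with its 95% interval (x axis, edgeR) for the 7 tested genes (black) and 5 partner genes (grey), ordered by change; filled points passed both thresholds and dotted lines mark a fold change of 1.5. Kcnq1 (-1.87) and Esrrb (-1.69) lie lowest, and Slc26a4 (0.01) and Bsnd (0.06) lie at the other end.

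Families of the same transporters were then read as lists, to place the 8 genes among their relatives. In the Na,K-ATPase and FXYD list, 3 of 9 genes tested were called lower and 0 higher, beside 6.62% and 3.09% of all genes tested. Their median log2-Fold change was -0.47, beside 0.02 for all genes. Among KCNQ and KCNE relatives 2 of 4 were lower, Kcne2 and Kcnq5 (-2.63, edgeR Padj 0.00310), the latter with at most 10 counts in each IDPN-4wk library. Of the inward rectifiers 2 of 7 were lower. These were Kcnj8 (-1.19, edgeR Padj 9.51e-04) and Kcnj11 (-1.16, edgeR Padj 5.40e-04), which encode the pores of ATP-sensitive potassium channels.

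The counts in the remaining lists stand beside the same 6.62% lower and 3.09% higher, and with so few genes a list nothing is read from them. Of 11 cotransporter and kinase genes only Slc12a5, the neuronal chloride exporter, was lower (-1.38, edgeR Padj 0.0422), and this call held in no leave-one-out fit except that without IDPN-4wk replicate 3. Of 9 CLC genes and 18 V-ATPase genes tested, 0 were called by edgeR in either direction. At an unadjusted p under 0.05 these lists held 3 and 7 genes, and DESeq2 called 0 in each. Of the 7 other SLC26 genes tested, 1 was higher, Slc26a10 (1.08, edgeR Padj 0.0444), whose call held in no leave-one-out fit except that without control replicate 2. Of 4 non-sensory transcription factors tested, Esrrb alone was called lower. Among 3 receptors known to act on secretion 0 were called by edgeR, with 2 at an unadjusted p under 0.05 and 0 by DESeq2.

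**Figure D4:**
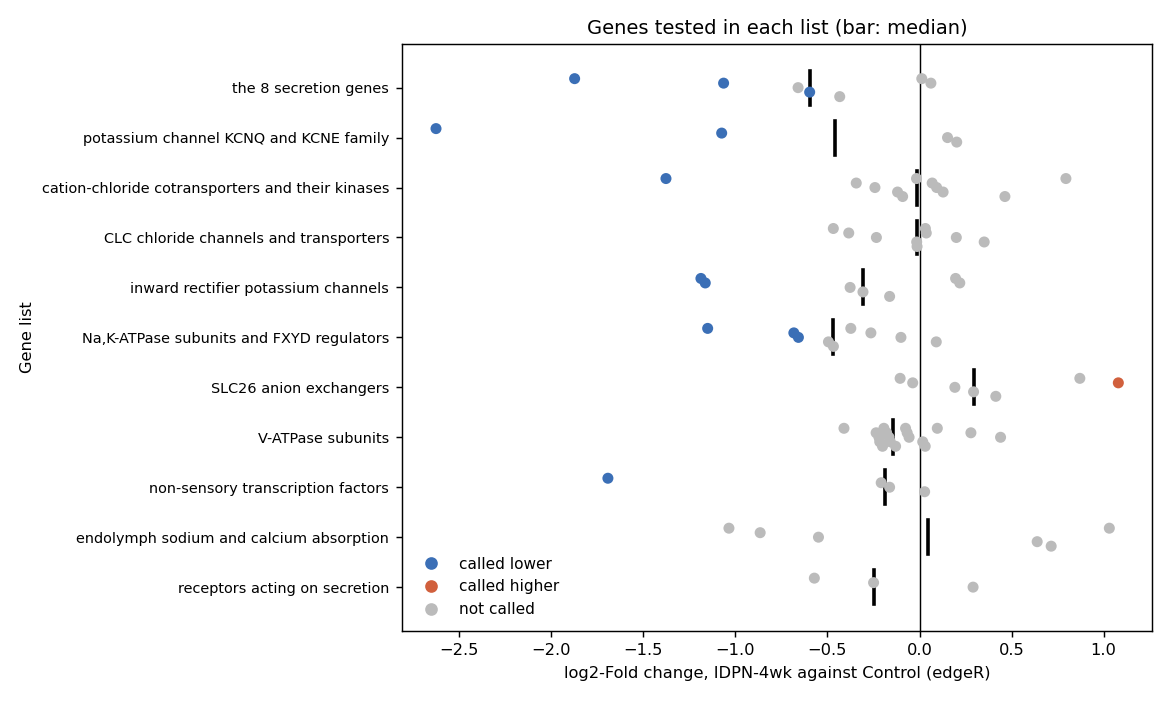
Log2-Fold change (x axis, edgeR) of every gene tested in the 8 secretion genes and in 10 lists of related genes, with a black bar at each median; blue points were called lower, orange higher and grey neither. The Na,K-ATPase list has 3 lower calls and a median of -0.47, and the medians of the CLC and V-ATPase lists are -0.01 and -0.14.

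Because dark cells can be carried along in dissection to a different degree in each animal, the libraries were compared with one another. Of the 3 treated animals, IDPN-4wk replicate 2 was the highest for 3 of the 7 genes tested (Kcne1, Bsnd and Atp1b2), where the same library was highest for 34.9% of all genes tested. Control replicate 1 was the lowest control for Kcne1, Slc12a2, Slc26a4 and Atp1b2, but not for Kcnq1, Bsnd or Kcnj10. It was the highest control for Kcnj10 (40.9 CPM). How often this library was the lowest control over all genes tested was not counted. Kcnq1 and Slc12a2 were called lower whichever library was left out. The number of genes called lower among the 7 ranged from 2 to 4 over these fits, with 4 only without IDPN-4wk replicate 2. Together the 8 genes took 0.154%, 0.195% and 0.181% of all counts in the control libraries and 0.111%, 0.131% and 0.113% in the IDPN-4wk libraries. Between 81.3% and 85.6% of those counts came from Atp1b2 and Slc12a2, so this sum says little of the other 6 genes.

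**Figure D5:**
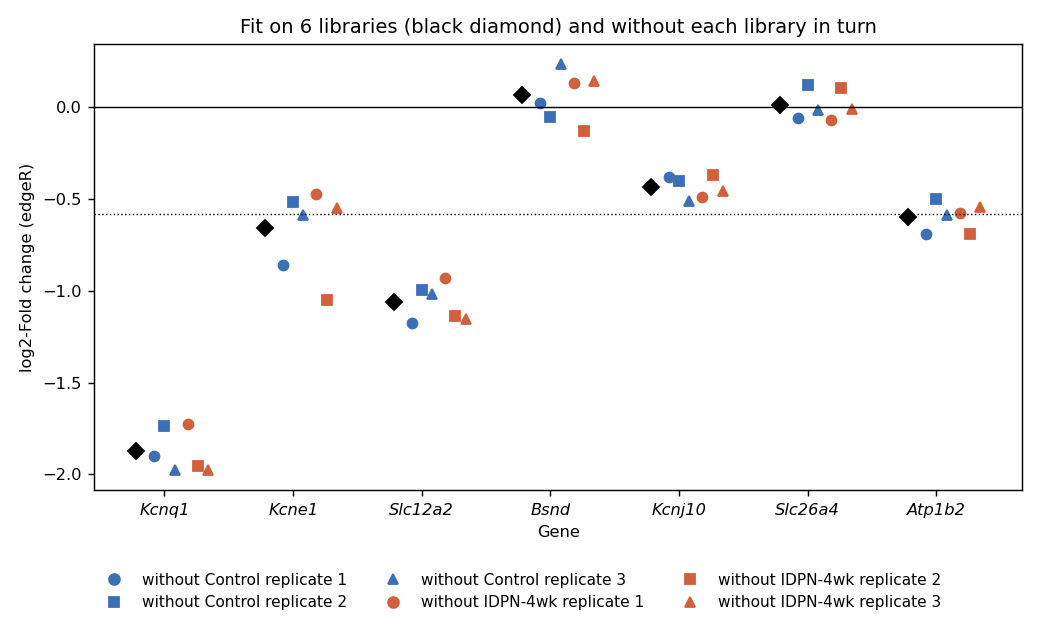
Log2-Fold change (y axis, edgeR) of the 7 tested genes in the fit on all 6 libraries (black diamond) and in the fits without each library in turn (blue, without a control; orange, without a treated animal); the dotted line marks a fold change of 1.5. Kcne1 moves most, to -1.05 without IDPN-4wk replicate 2, and Kcnq1 stays between -1.98 and -1.73.

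The pattern over libraries was also set beside other genes. As a description over 6 libraries that fall into 2 groups, the mean standardised log2 CPM of Kcnq1 and Kcne1 was matched most closely by Trim45 (Pearson r 0.999), Kirrel3 (0.998), Eva1a (0.996) and Micu3 (0.993). Of 12554 genes compared, 427 (3.40%) had r over 0.9. Among the secretion genes, r was 0.964 for Slc12a2, 0.967 for Atp1b2, 0.656 for Kcnj10, 0.104 for Bsnd and -0.14 for Slc26a4.

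Markers of the cell types that a dissected epithelium could hold were read beside these results, and their calls stand beside 6.62% of all genes called lower and 3.09% called higher. The 8 dark cell markers, 5 of which are among the 8 secretion genes, had 4 genes called lower and summed to between 1521 and 1969 CPM in the controls, against between 990.5 and 1211 CPM after IDPN. HC markers summed to between 1936 and 2061 CPM in the controls, against between 1012 and 1324 CPM after IDPN, with 5 of 8 called lower. For supporting cells the ranges were 13265 to 14778 and 7644 to 9201 CPM, with 5 of 10 called lower. For Schwann cells and other glia, which express Atp1b2 and Kcnj10, the ranges overlapped (8452 to 10680 and 5732 to 8634 CPM), with 2 of 8 called lower.

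The remaining marker lists were read in the same way. Of 10 melanocyte genes 0 were called, with 5 at an unadjusted p under 0.05, 0 called by DESeq2 and 1 by limma voom, and their sum was 707 to 837 CPM in the controls, against 609 to 660 CPM after IDPN. Stroma sums were 20543 to 23914 and 16206 to 19128 CPM, with 2 lower and 1 higher of 8 genes, and neuron sums 109 to 114 and 64.2 to 70.6 CPM, with 2 lower and 1 higher of 6. Most of the melanocyte sum was Pmel and most of the stroma sum was Coch, both named for that reason. Pmel averaged 538 CPM in the controls and 459 CPM after IDPN (log2-Fold change -0.23, not called). Coch averaged 20517 and 16429 CPM (log2-Fold change -0.32, not called). Of the 8 stroma genes, 5 had log2-Fold changes below 0 and 3 above. The endothelium sums (392 to 522 and 398 to 458 CPM) and macrophage sums (83.6 to 110.5 and 71.5 to 129.98 CPM) overlapped between the groups. Of 5 endothelial genes 0 were called by edgeR, with 1 at an unadjusted p under 0.05 and 0 by DESeq2. Of 7 macrophage genes edgeR called 0 lower and 1 higher, with 3 at an unadjusted p under 0.05. DESeq2 called 1 lower and 1 higher. The gene that edgeR called higher, named after its value was seen, was C1qb (0.71, edgeR Padj 0.0271). That call was lost without control replicate 3 (edgeR Padj 0.0864) or IDPN-4wk replicate 1 (edgeR Padj 0.116). Of the markers of mitochondria-rich non-sensory cells, Foxi1 and Atp6v1g3 were at 0 in all libraries. What part these cell types had in the values of the secretion genes was not tested.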

How the data were processed

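Vestibular epithelia of 3 control and 3 IDPN-4wk rats were profiled by SMART-seq2, which does not keep strand, so that reads of a gene and of an antisense partner cannot be told apart. Per the submitters' processing notes the authors used STAR 2.5.3a and RSEM 1.3.0, and the study's methods give the build Rnor6.0. The deposited values are expected counts per gene, which the authors obtained with RSEM, all of them whole numbers as deposited, so RSEM's division of reads between similar genes is kept but its fractions are not. Low genes were removed by filterByExpr, whose minimum count was 10 and minimum total 15. After TMM scaling, edgeR 4.0.16 (R 4.3.3) gave quasi-likelihood tests with Benjamini-Hochberg adjustment over 14352 genes. DESeq2 1.42.0 and limma voom (limma 3.58.1) were alternatives, as were other scalings and filters, other call rules and leaving out each library. Ratios used counts plus 0.5 and exact permutation tests over libraries (scipy 1.17.1). Scripts were tested on simulated data. Libraries held 13358678 to 18561991 counts, so that 3 counts, taken as the limit that a count of 0 allows, are 0.155 to 0.216 CPM; such limits cover counting error only. Each library is 1 animal.

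The secretion genes and all lists were chosen with earlier results of these data known. Named are all 8 secretion genes, up to 3 genes called in each direction per related list, the partners Atp1b1, Kcnj16, Foxi1, Esrrb and Atp6v0a4, and, of the 5 genes (mean over 1 CPM) most like Kcnq1 and Kcne1, those printed. Some items that this rule names are not reported here. Alternatives for named genes outside the 8 were added after seeing the data. Promoters come from RefSeq (GRCr8), whose coordinates were not mixed with those of Rnor6.0. The promoter of Kcnq1 was not used here.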

Additional observations from a re-analysis of the deposited data

How the results depend on the processing

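Kcnq1 and Slc12a2 were called lower, and Kcnj10 was below 0 and not called, in all 13 alternative fits of scaling, filter, tool and left-out library. Kcne1 was past both thresholds with DESeq2 (-0.68), and leaving out one library at a time gave log2-Fold changes from -1.05 to -0.48. Atp1b2 was under the fold change threshold with upper quartile scaling (-0.56) and with library size alone (-0.49), and ranged from -0.69 to -0.50 when one library was left out. Bsnd ranged from -0.13 to 0.23 and Slc26a4 from -0.074 to 0.12 when one library was left out, so that their sign was not fixed. Bsnd turned negative when control replicate 2 (-0.056) or IDPN-4wk replicate 2 (-0.13) was dropped. Slc26a4 turned negative when control replicate 1 (-0.062), control replicate 3 (-0.015), IDPN-4wk replicate 1 (-0.074) or IDPN-4wk replicate 3 (-0.013) was dropped. Over all genes, library size alone gave 762 higher calls and 780 lower, a test against the fold change itself (glmTreat) 354 lower and 99 higher, and Padj alone 1646 lower and 1132 higher, against 950 and 444. Apart from the fits named here, the causes of these shifts were not tested. Depth limits Atp6v1b1 above all, with at most 7 counts in a library. No paired analysis was made because the labels give no replicate numbers shared between the groups. The endings LF, NM and RF of the animal codes occur in both groups, and the labels do not say what they mark.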

Other observations

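The epithelial sodium channel, which takes sodium out of the endolymph beside the dark cells, was examined as part of a list of 6 tested genes of sodium and calcium absorption. In that list 0 genes were called by edgeR, with 4 at an unadjusted p under 0.05 and 1, Scnn1a, called higher by DESeq2. The list split into 3 genes below 0 and 3 above. Among those below 0 were Nr3c2, the mineralocorticoid receptor, at -0.55 (edgeR Padj 0.00458), which was under the fold change threshold, and Slc8a1, a sodium-calcium exchanger, at -0.87 (edgeR Padj 0.0831). Nr3c2 passed without control replicate 2 (-0.61) or IDPN-4wk replicate 3 (-0.59), and Slc8a1 without IDPN-4wk replicate 1 (edgeR Padj 0.0383). Both genes and the channel subunits below are named because of the values they showed. Scnn1a, the alpha subunit, averaged 2.80 ± 0.862 CPM in the controls, against 5.70 ± 2.26 CPM after IDPN (log2-Fold change 1.03 ± 0.34 SE, Padj of edgeR 0.0534). It passed in 5 of 13 alternative fits, with DESeq2 (Padj 0.0332), upper quartile scaling (edgeR Padj 0.0457), library size alone (edgeR Padj 0.0302), no count filter (edgeR Padj 0.0377) and without control replicate 1 (edgeR Padj 0.0459). Over all 13 its log2-Fold change ranged from 0.65 to 1.28, with Padj up to 0.239. Scnn1b was at 3.83 ± 0.801 and 5.96 ± 0.864 CPM (log2-Fold change 0.64, edgeR Padj 0.0893, ranging from 0.0436 with library size alone to 0.239 over the alternative fits). Scnn1g was at 2.01 ± 1.11 and 3.33 ± 0.517 CPM (log2-Fold change 0.72, edgeR Padj 0.216, ranging from 0.0399 without control replicate 1 to 0.468, with log2-Fold changes from 0.49 to 1.27).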
